A study of Homo sapiens with 12 samples.

Results

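A set of 8 genes of the extrinsic death pathway were followed through NGI-1 treatment of MM1S cells: the ligand TNFSF10 (TRAIL), the death receptors TNFRSF10A, TNFRSF10B and FAS, the decoy receptor TNFRSF10D, the adaptor FADD, the initiator caspase CASP8 and its inhibitor CFLAR. They are the rows of the deposited table with these 8 symbols, out of 59276 features, and were chosen by name. MM1S is an established human multiple myeloma line, and NGI-1 is a small molecule inhibitor of the oligosaccharyltransferase, the complex that attaches N-linked glycans to proteins entering the secretory pathway. Total RNA was sequenced from 12 libraries, numbered H1 to H12 by the submitters. Libraries H1 to H3 carry the label day 0, H4 to H6 were taken after 2 days of NGI-1, H7 to H9 after 3 days and H10 to H12 after 5 days, at 10 μM by the methods of the study. The labels name NGI-1 as the treatment of the day 0 libraries too, while the study describes untreated or DMSO control cells. Whether the vehicle was present at day 0 is therefore not settled. No library of day 2, day 3 or day 5 is labelled as untreated or vehicle-treated. Effects of NGI-1 and of time in culture therefore cannot be told apart. All libraries come from 1 cell line, and no source says that they are separate cultures, so p-values measure only the spread between these libraries.

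TRAIL is a membrane-bound or shed ligand of the TNF family that is best known for killing transformed cells. Bound to TNFRSF10A (death receptor DR4) or TNFRSF10B (DR5), it recruits FADD and then caspase-8 into the death-inducing signaling complex, where caspase-8 is activated and cuts executioner caspases or BID. CFLAR encodes c-FLIP, which sits in the same complex and restrains caspase-8, and TNFRSF10C and TNFRSF10D bind the ligand without passing on a full death signal. TNFSF10 is also an interferon-inducible gene in many blood cells, and TNFRSF10B is a target of the stress factor CHOP, the product of DDIT3.

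Levels are given in TPM, a share of the transcripts corrected for length and summed to the same total in every library, which allows genes to be compared within a library. Differences are on the deposited log2(TPM + 1) scale, which understates the change of genes near or below 1 TPM. A gene was called higher or lower when limma gave a Benjamini-Hochberg adjusted p under 0.05 over 11939 features and a log2 difference over 0.5 in size. The composition of the libraries shifted with time: the 20 most abundant features took 21.7% to 22.3% of the TPM at day 0, 26.4% to 27.2% at day 2, 34.5% to 34.7% at day 3 and 36.7% to 38.9% at day 5. The median log2 difference of all features tested against day 0 was -0.18, -0.73 and -0.99 at day 2, day 3 and day 5, and differences from day 0 are therefore also given after the libraries were rescaled to the same median. Plasma cell markers were present (8 of 8, with a summed level of 3002 to 4037 TPM), and the B cell, monocyte and stromal marker lists each summed to under 1 TPM in every library. Single plasma cell markers took different courses behind this sum. TNFRSF17 went from a mean of 577 TPM at day 0 to 2087 TPM at day 5. Over the same days XBP1 went from 1547 to 366 TPM and SDC1 from 496 to 144 TPM. Of the T and NK cell list, CD3D was listed at 0 in all libraries. CD3E averaged 3.00, 6.33, 5.79 and 4.01 TPM at day 0, day 2, day 3 and day 5. The summed level of 12.3 to 28.6 TPM came mostly from NCAM1, at a mean of 24.0 TPM at day 0 and 10.8 TPM at day 5. The erythroid gene HBB was listed at 0 at day 0 and day 2 and averaged 0.568 TPM at day 3 and 0.805 TPM at day 5. The part of these CD3E, NCAM1 and HBB levels in the results was not tested.

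At day 0 the transcripts of the intracellular machinery were abundant and the ligand was nearly absent. CASP8 stood highest at a mean of 52.8 TPM, followed by CFLAR at 30.1 TPM. TNFRSF10A at 22.96 TPM and FADD at 22.4 TPM overlapped in their libraries, and TNFRSF10B lay below both at 15.7 TPM. FAS at 2.60 TPM, TNFRSF10D at 0.522 TPM and TNFSF10 at 0.189 TPM came last, and no neighbours in this order overlapped apart from TNFRSF10A and FADD. TNFSF10 moved from the eighth to the sixth place at day 2 and stayed there. At day 5 the order was CASP8, CFLAR, TNFRSF10B, FADD, TNFRSF10A, TNFSF10, TNFRSF10D and FAS, with overlap between CASP8 and CFLAR, between TNFRSF10B and FADD, between FADD and TNFRSF10A, and between TNFRSF10D and FAS.

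**Figure D1:**
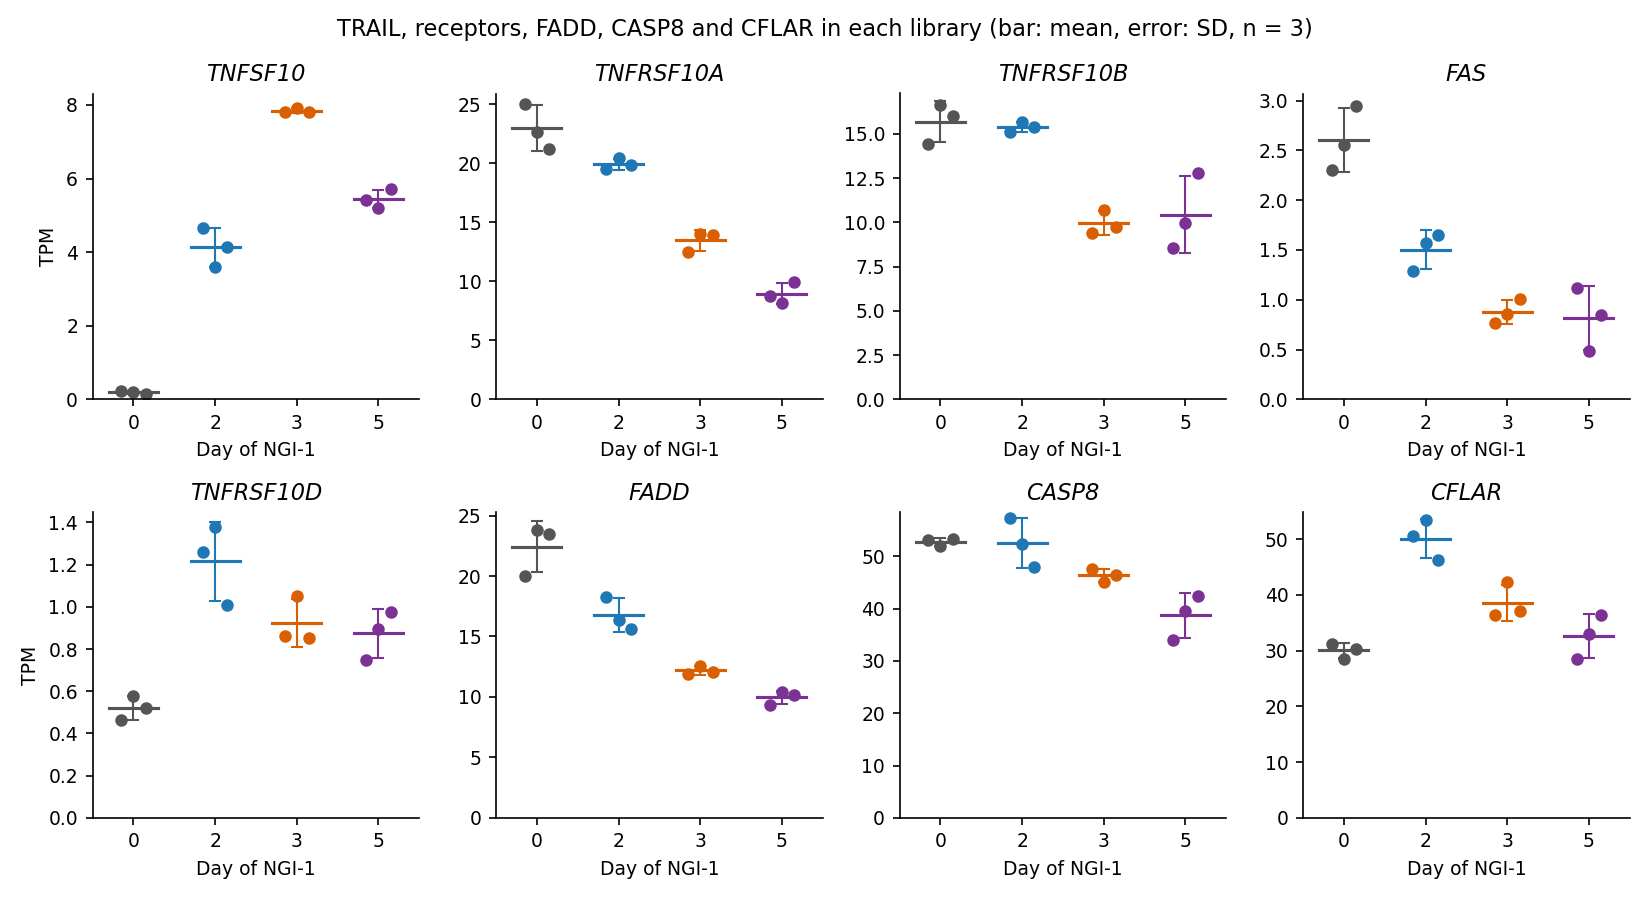
TPM of each of the 8 genes (y axis, linear, from 0, own scale per panel) in the 12 libraries by day of NGI-1 (x axis). Points are libraries, bars are means and error bars the SD over 3 libraries, and TNFSF10 goes from 0.147 to 0.224 TPM at day 0 to between 3.60 and 7.92 TPM in the treated libraries.

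TNFSF10, which alone of the 5 death ligands listed passed the filter on low values, was higher than at day 0 on every day of treatment. The gene occupies bases 172505508 to 172523507 of chromosome 3 (GRCh38, minus strand). In the day 0 libraries it measured 0.224, 0.196 and 0.147 TPM, in H1 to H3. It was 4.66, 3.60 and 4.13 TPM in the day 2 libraries H4 to H6. Day 3 gave 7.80, 7.92 and 7.81 TPM in H7 to H9, and day 5 gave 5.41, 5.21 and 5.70 TPM in H10 to H12. Every treated library lay above every day 0 library, the day 3 libraries were the highest, and the libraries of different days did not overlap.

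The log2 difference of TNFSF10 from day 0 was 2.11 at day 2 (standard error 0.116, limma adjusted p = 2.25e-08), 2.90 at day 3 (adjusted p = 9.57e-11) and 2.44 at day 5 (adjusted p = 3.08e-10). After rescaling it was 1.91, 3.23 and 3.08, called higher on each day. Only 36, 24 and 42 of the 11939 features tested had a larger rise on these days on the deposited scale. After rescaling 56, 34 and 69 did. Between day 2 and day 3 the level rose again by 0.79 (adjusted p = 6.34e-05), whereas the difference between day 5 and day 3 was -0.46 and was not called (adjusted p = 0.0115). TNFSF10 reached 1 TPM in 9 libraries, none of them at day 0, so it entered the test only through the treated libraries. In bulk RNA, a change in the number of cells that carry a transcript and a change in its amount per cell cannot be told apart. The other death ligands on the pathway list, FASLG, TNF, LTA and TNFSF15, were not tested, and FASLG was listed at 0 in every library.

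Promoter stretches upstream of the first annotated exon are shown for TNFSF10 and FADD, which have 1 listed RefSeq start each. FAS, CASP8 and CFLAR have 3, 3 and 4 listed starts, and their sequences are not printed. Whether either stretch bears on the level of its gene was not tested. Both were taken from RefSeq (GRCh38.p14) and are written 5′ to 3′ along the gene, TNFSF10 from chr3:172523508-172523680 on the minus strand and FADD from chr11:70203046-70203162 on the plus strand. Capitals mark the match to the core of the interferon-stimulated response element (ISRE, GAAA repeated after a gap of 2 bases, here read on the other strand) in TNFSF10, and to a GC box (GGGCGG, here CCGCCC) in FADD.
TNFSF10: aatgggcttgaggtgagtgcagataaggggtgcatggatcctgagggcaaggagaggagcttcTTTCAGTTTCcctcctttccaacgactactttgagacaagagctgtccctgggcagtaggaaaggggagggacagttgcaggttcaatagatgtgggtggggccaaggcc
FADD: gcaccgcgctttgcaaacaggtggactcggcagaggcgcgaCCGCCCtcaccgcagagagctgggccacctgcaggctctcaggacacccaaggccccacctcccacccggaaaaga

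Windows of 250 bases before to 50 bases after the RefSeq start were searched on both strands for the ISRE core, the gamma-activated site GAS (TTCNNNGAA), the GC box, a FOXO site (GTAAACA), the composite ATF4-CHOP element (TGATGNAA) and TATAAA. The ISRE match of TNFSF10 begins at position -187 from the start, and a TATAAA match at position -31, which lies outside the stretch printed. CASP8, with 3 listed starts, had an ISRE match at position -3 and a GAS match at position -200 of one of them. The ISRE core occurred in 3.57% of all 35116 promoters, GAS in 7.66%, TATAAA in 11.5% and the GC box in 44.95%. Another CASP8 window had a TATAAA match at position -139. FADD, FAS, CASP8 and CFLAR held GC boxes in at least 1 of their windows. FOXO and ATF4-CHOP matches, which 3.42% and 3.62% of all promoters hold, were found in none of the listed windows of these 5 genes. Promoters of TNFRSF10A, TNFRSF10B and TNFRSF10D were not analysed here.

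Both agonist TRAIL receptors were lower on the deposited scale from day 3, though neither was after rescaling. TNFRSF10A spans bases 23190452 to 23225126 of chromosome 8 and TNFRSF10B bases 23020133 to 23069179 (GRCh38, minus strand for both). TNFRSF10A was at 25.0, 22.7 and 21.2 TPM in H1 to H3 and at 19.5, 20.4 and 19.8 TPM at day 2. It was at 12.4, 14.0 and 13.9 TPM at day 3 and at 8.74, 8.17 and 9.93 TPM at day 5. The libraries of any day lay below all libraries of the day before it, without overlap. The log2 difference of TNFRSF10A from day 0 was -0.19 (adjusted p = 0.146), -0.73 (adjusted p = 2.31e-05) and -1.27 (standard error 0.105, adjusted p = 6.58e-08), called lower at day 3 and day 5. It differed by -0.53 between day 3 and day 2 and by -0.54 between day 5 and day 3, both called. Rescaled, its differences from day 0 were 0.03, 0.09 and -0.13 and none was called.

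TNFRSF10B took another course. Its level was 14.4, 16.7 and 16.0 TPM at day 0 and 15.1, 15.7 and 15.4 TPM at day 2, where the libraries overlapped. It then stood at 9.43, 10.7 and 9.72 TPM at day 3. At day 5 it spread more widely, at 8.53, 9.94 and 12.8 TPM in H10 to H12. The day 3 and day 5 libraries overlapped one another and lay below all day 0 libraries. On the log2 scale TNFRSF10B differed from day 0 by -0.02 at day 2 (95% interval -0.30 to 0.25), -0.61 at day 3 (adjusted p = 6.82e-04) and -0.56 at day 5 (adjusted p = 0.00105). The day 5 call was lost without H10, at -0.44. After rescaling the differences were 0.19, 0.19 and 0.57, so the day 5 direction turned and was called higher (adjusted p = 4.57e-05). Overlapping genes on the opposite strand, RHOBTB2 for TNFRSF10B (2.30 TPM at day 0 and 2.89 TPM at day 5) and AC100861.1 for TNFRSF10A (6.41 TPM and 2.97 TPM), could share reads with these receptors, since strand-specific counting is not stated.

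FAS, the receptor of the ligand encoded by FASLG, was expressed at a low level and was called lower on each day on the deposited scale but on none after rescaling. The gene spans bases 88990582 to 89015785 of chromosome 10 (plus strand). The libraries gave 2.30, 2.56 and 2.95 TPM at day 0, 1.28, 1.57 and 1.65 TPM at day 2, 0.763, 0.858 and 1.003 TPM at day 3, and 1.12, 0.483 and 0.849 TPM at day 5. All treated libraries lay below all day 0 libraries, while day 3 and day 5 overlapped. The log2 difference was -0.53 at day 2 (adjusted p = 0.0101), -0.94 at day 3 (adjusted p = 4.58e-05) and -0.999 at day 5 (adjusted p = 1.97e-05), and -0.33, -0.40 and -0.28 after rescaling. At day 2 the call was lost without H3 or without H4, at -0.46 in both cases. ACTA2 overlaps FAS on the opposite strand and was at 0.429 TPM at day 0 and 0.0937 TPM at day 5.

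TNFRSF10D, the decoy receptor DcR2 with a truncated death domain, rose at day 2 from a low level. It lies between the other receptor genes on chromosome 8, at bases 23135588 to 23164030 (minus strand). Its level was 0.466, 0.579 and 0.522 TPM at day 0 and 1.26, 1.38 and 1.01 TPM at day 2. At day 3 it was 0.863, 1.05 and 0.851 TPM and at day 5 0.750, 0.895 and 0.976 TPM. All treated libraries lay above all day 0 libraries. The log2 difference was 0.54 at day 2 (adjusted p = 0.00235), 0.34 at day 3 (adjusted p = 0.0182) and 0.30 at day 5 (adjusted p = 0.0295), of which the first alone passed the size threshold. Without H5 the day 2 difference was 0.49 and not called. After rescaling it was 0.53, 0.65 and 0.81, called on each day. TNFRSF10D reached 1 TPM in 4 libraries, 3 of them at day 2, and so passed the filter only through treated libraries. The other decoy, TNFRSF10C, was too low to be tested, with group means of 0.0584 to 0.125 TPM.

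FADD, the adaptor shared by the TRAIL receptors and FAS, was called lower at day 3 and day 5 on the deposited scale but not after rescaling. It spans bases 70203163 to 70207390 of chromosome 11 (plus strand). Its level was 20.03, 23.8 and 23.5 TPM at day 0, 18.3, 16.4 and 15.6 TPM at day 2, 11.9, 12.6 and 12.1 TPM at day 3, and 9.33, 10.4 and 10.2 TPM at day 5. The 4 days did not overlap, and each was lower than the one before. FADD differed from day 0 by -0.40 (adjusted p = 0.00719, under the size threshold), -0.83 (adjusted p = 6.82e-06) and -1.09 (adjusted p = 2.76e-07), which is -0.21, -0.093 and -0.10 relative to the median of all features tested. After rescaling the differences were -0.17, -0.01 and 0.05, none of them called.

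CASP8 and CFLAR are neighbours on the plus strand of chromosome 2, CFLAR at bases 201116104 to 201176687 and CASP8 at bases 201233443 to 201287711, with CASP10 between them. CASP8 was at 53.1, 51.9 and 53.3 TPM in H1 to H3 and at 57.3, 52.4 and 47.9 TPM in H4 to H6. It was at 47.5, 45.1 and 46.5 TPM in the day 3 libraries and at 34.1, 39.7 and 42.5 TPM in those of day 5. Day 2 overlapped day 0, and the libraries of day 3 and day 5 lay below both. The log2 difference of CASP8 was -0.01 at day 2 (95% interval -0.22 to 0.20), -0.18 at day 3 (-0.39 to 0.02) and -0.44 at day 5 (-0.65 to -0.23), not called on any day. Without H12 the day 5 difference was -0.51 and called lower. After rescaling the direction turned, to 0.22, 0.67 and 0.76, and CASP8 was called higher at day 3 and day 5 (adjusted p = 1.97e-05 and 4.46e-06).

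CFLAR rose at day 2 and then declined on the deposited scale. Its level was 31.3, 28.6 and 30.3 TPM at day 0 and 50.6, 53.4 and 46.4 TPM at day 2. It was 36.3, 42.2 and 37.2 TPM at day 3 and 28.6, 32.9 and 36.4 TPM at day 5. The day 2 libraries were the highest, day 3 lay between day 0 and day 2, and day 5 overlapped day 0. The log2 difference of CFLAR was 0.72 at day 2 (standard error 0.105, adjusted p = 1.08e-04), 0.35 at day 3 (adjusted p = 0.00773, under the size threshold) and 0.11 at day 5 (95% interval -0.12 to 0.33). After rescaling it was 0.93, 1.19 and 1.30, called higher on each day (adjusted p = 6.65e-07, 2.07e-08 and 5.36e-09). On that scale the differences between neighbouring days were 0.25 and 0.11, and neither was called.

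**Figure D2:**
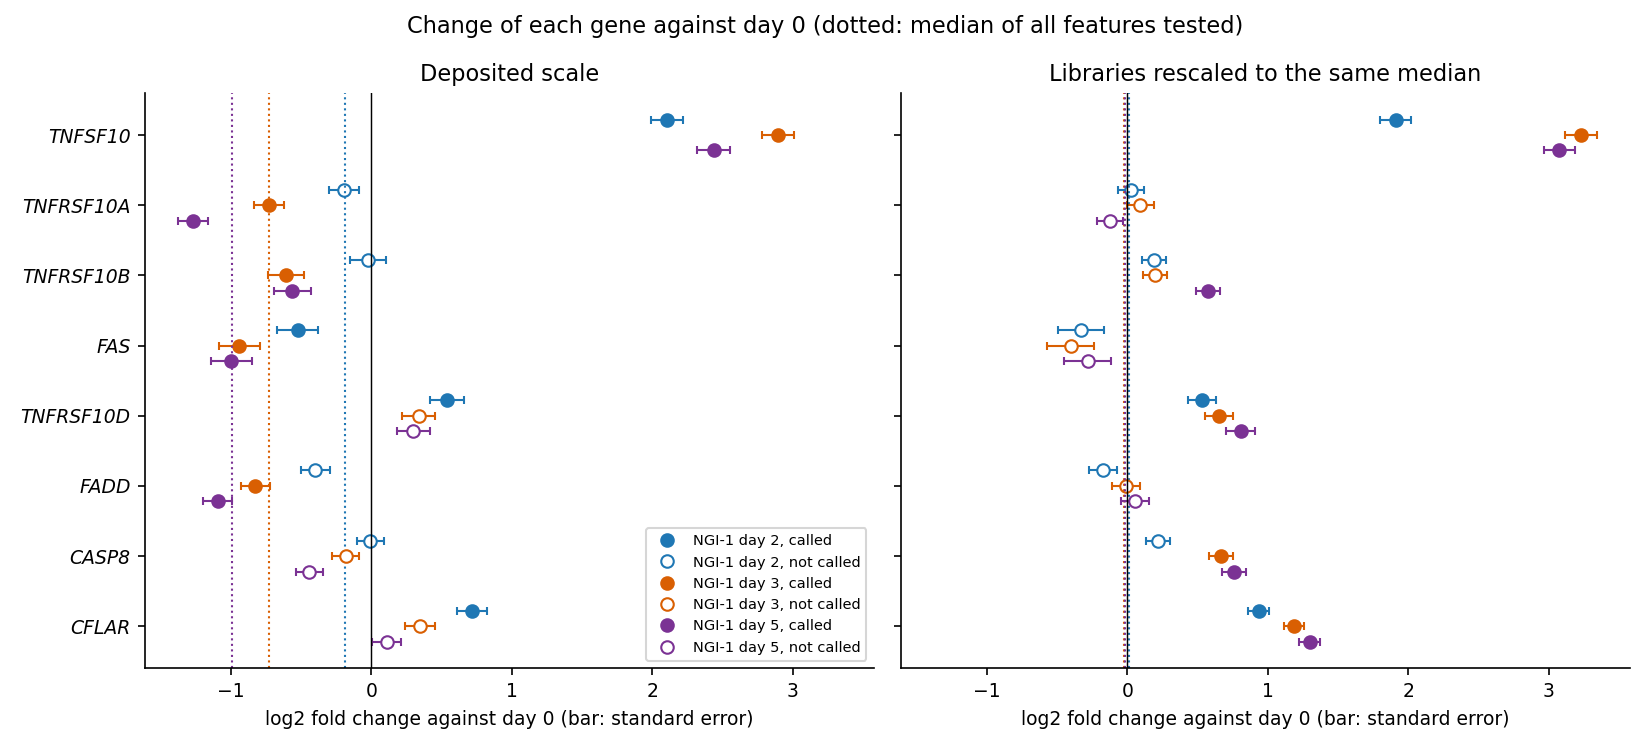
Log2 difference of the 8 genes from day 0 (x axis) at day 2, day 3 and day 5, on the deposited scale (left) and after the libraries were rescaled to the same median (right). Points are limma estimates, filled where called, bars are standard errors, dotted lines mark the median of all features tested (-0.18, -0.73 and -0.99 on the left), and TNFSF10 stands apart at 1.91 to 3.23 in both panels.

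Counted over the 8 genes, 3 were called higher and 1 lower at day 2, beside 8.03% and 23.2% of all features tested. At day 3, 1 was called higher and 4 lower, beside 7.59% and 61.5%, and at day 5 again 1 higher and 4 lower, beside 7.73% and 69.8%. The lower genes at day 3 and day 5 were TNFRSF10A, TNFRSF10B, FAS and FADD. From day 2 to day 3, 1 was higher and 2 lower, beside 3.22% and 55.5%, and from day 3 to day 5 none was higher and 1 lower, beside 0.67% and 13.1%. After rescaling, 3, 4 and 5 of the 8 genes were called higher at day 2, day 3 and day 5, beside 12.9%, 23.9% and 27.5% of all features, and none lower, beside 11.4%, 24.2% and 26.9%. The 5 at day 5 were TNFSF10, TNFRSF10B, TNFRSF10D, CASP8 and CFLAR. Between neighbouring days the rescaled calls were TNFSF10 from day 2 to day 3, beside 14.3% of all features higher and 13.6% lower, and none from day 3 to day 5, beside 4.43% and 2.03%. The 3 treated groups are compared with the same day 0 libraries, without untreated libraries of their own days.

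Ratios of TPM were taken within each library with 0.1 TPM added to each gene, an addition that weighs on genes near that level. TNFSF10 over the sum of TNFRSF10A and TNFRSF10B averaged 0.00742 ± 0.00079 at day 0 and 0.120 ± 0.017, 0.337 ± 0.019 and 0.286 ± 0.031 after 2, 3 and 5 days (SD, n = 3 each). With nothing added the means were 0.00487, 0.117, 0.336 and 0.284. Each treated library exceeded each day 0 library, and the day 3 libraries were the highest.

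TNFRSF10B over TNFRSF10A was 0.691 ± 0.099, 0.775 ± 0.0051, 0.743 ± 0.035 and 1.16 ± 0.16 on the 4 days (SD, n = 3 each). By library the ratio was 0.577, 0.736 and 0.759 at day 0 and 0.976, 1.21 and 1.29 at day 5. Day 3 overlapped day 0, day 2 lay just above the highest day 0 library, and at day 5 the receptors were near equal in level. Without H1 the difference between day 3 and day 0 was -0.0046 in place of 0.052. The decoy receptors TNFRSF10C and TNFRSF10D together made up 1.97% ± 0.17 of the TPM of the 4 TRAIL receptors at day 0 and 4.16% ± 0.51, 4.997% ± 0.51 and 5.77% ± 0.66 after 2, 3 and 5 days (SD, n = 3 each), again without overlap with day 0. With nothing added the means were 1.48%, 3.66%, 4.26% and 4.90%. The size of this rise depends on the addition: with 1 TPM added it was 4.73 and 6.40 percentage points at day 3 and day 5, in place of 3.03 and 3.81.

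CFLAR over CASP8 was 0.571 ± 0.019 at day 0 and 0.956 ± 0.068, 0.834 ± 0.091 and 0.843 ± 0.013 after 2, 3 and 5 days (SD, n = 3 each). The treated libraries ranged from 0.765 to 1.02 and all exceeded the highest day 0 library, at 0.590. FADD over CASP8 went the other way, from 0.427 ± 0.043 to 0.320 ± 0.0069, 0.265 ± 0.014 and 0.260 ± 0.018 (SD, n = 3 each), with all treated libraries under the lowest day 0 library, at 0.378. With 3 libraries in each group these ratios are given as values, without a test.

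The wider pathway was described with 59 genes in 10 lists, of which 48 were expressed highly enough to be tested. At day 5, 2 of the 48 were called higher and 38 lower, beside the 7.73% and 69.8% of all features, and their median log2 difference was -1.20 against -0.99 over all features. At day 2 the counts were 6 higher and 14 lower, beside 8.03% and 23.2% of all features, with a median of -0.25 against -0.18. At day 3 they were 3 and 36, beside 7.59% and 61.5%, with a median of -0.96 against -0.73. After rescaling the lists had 12 genes higher and 6 lower on day 2, 10 and 13 on day 3, and 11 and 14 on day 5. The shares of all features were then 12.9% and 11.4%, 23.9% and 24.2%, and 27.5% and 26.9%. Without the 8 genes, 1 of 40 was called higher and 34 were lower at day 5, and 6 and 14 after rescaling.

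The counts of single lists at day 5 stand beside 69.8% of all features called lower and 7.73% higher on the deposited scale, and 26.9% and 27.5% after rescaling. With so few genes in a list, they are given as descriptions. The 5 tested death receptors were called lower at day 5, beside 69.8% of all features, against 1 lower and 1 higher after rescaling, with TNFRSF21 (DR6) lowest at -1.30, and at -0.71 after rescaling. Of the 9 genes of the death-inducing complex and complex II, 6 were lower and none higher at day 5, near the share of all features, against 2 and 3 after rescaling. TRAF2, an adaptor of TNF receptor complexes, had the largest fall, at -1.997, and -1.05 after rescaling. CASP10, the second initiator caspase of the complex, went from 63.7 TPM at day 0 to 20.8 TPM at day 5, so that it was more abundant than CASP8 at day 0 and less abundant at day 5. Its log2 difference was -0.39 at day 2, -1.05 at day 3 and -1.58 at day 5, called lower at day 3 and day 5, and -0.16, -0.20 and -0.39 after rescaling, not called. TRADD, an adaptor of TNF receptor 1, was called higher at day 2 at 0.71, and at 0.87 after rescaling, and stood at -0.08 at day 5, where it was at 0.92 and called higher after rescaling.

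Downstream, all 8 genes of the mitochondrial arm were called lower at day 5, beside 69.8% of all features, and 3 of them after rescaling, beside 26.9%. BAK1, a pore-forming effector, fell most, at -2.32 and at -1.13 after rescaling. BID, the substrate that links caspase-8 to mitochondria, differed by -0.34, -0.65 and -0.88 on the 3 days, and by -0.11, 0.19 and 0.31 after rescaling, when it was not called. Among the 6 executioners and substrates reported here, 6 were lower at day 5, beside 69.8% of all features, against 4 after rescaling, beside 26.9%. PARP1, a caspase substrate that acts in DNA repair, fell from 145 TPM to 20.6 TPM at day 5, a log2 difference of -2.79, and of -1.59 after rescaling.

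Of the 5 inhibitor of apoptosis proteins, 3 were called lower and none higher at day 5, beside 69.8% and 7.73% of all features. After rescaling 1 was lower and 2 were higher, beside 26.9% and 27.5%. BIRC5, which encodes survivin and is expressed in dividing cells, fell by 5.09 on the log2 scale at day 5, from 48.6 TPM to 0.463 TPM, and by 4.28 after rescaling. XIAP, a direct caspase inhibitor, was lower at day 3 and day 5, at -0.96 and -1.28, and at -0.12 and -0.10 after rescaling, not called. BIRC6 was also lower at day 3 and day 5, at -1.08 and -1.16, and at -0.32 and -0.11 after rescaling, not called. BIRC2, which encodes cIAP1, differed by 0.39, 0.34 and 0.20 and was not called on any day, though after rescaling it was called on each, at 0.61, 1.16 and 1.37. BIRC3, which encodes cIAP2, was called higher at day 3 alone, at 0.78, and on each day after rescaling, at 0.55, 1.33 and 1.01. Of the necroptosis genes, MLKL fell by 1.58 at day 5, and by 0.86 after rescaling. CYLD, a deubiquitinase, was called higher at day 2 at 0.61, and at 0.78 after rescaling, and stood at -0.08 at day 5, where it was at 0.96 and called higher after rescaling. RIPK3 was not tested, as its highest group mean was 0.0882 TPM. GALNT14, an O-glycosyltransferase known to modify TRAIL receptors, was lower at day 5, at -2.27, and at -1.20 after rescaling. GALNT3, the other O-glycosyltransferase tested, was called lower at day 5 at -0.78, but was at 0.41 and not called after rescaling. At day 2 GALNT3 was at 0.30 and not called, and at 0.53 and called higher after rescaling.

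Among 9 transcription factors reported here that are known to bind TRAIL or receptor genes, 1 was called higher and 7 lower at day 5, beside 7.73% and 69.8% of all features, against 2 and 1 after rescaling, beside 27.5% and 26.9%. DDIT3 was called higher than at day 0 on every day, at 11.3 TPM at day 0 and then 26.0, 23.8 and 43.6 TPM. Its log2 differences from day 0 were 1.13, 1.005 and 1.86, and 1.32, 1.81 and 3.02 after rescaling. IRF1, a factor of the interferon response, differed by 0.41, -0.58 and -0.85, called lower at day 3 and day 5. After rescaling its differences were 0.63, 0.25 and 0.32, called higher at day 2 alone. RELA, the p65 subunit of NF-κB, fell most, at -1.74, and at -0.58 after rescaling.

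**Figure D3:**
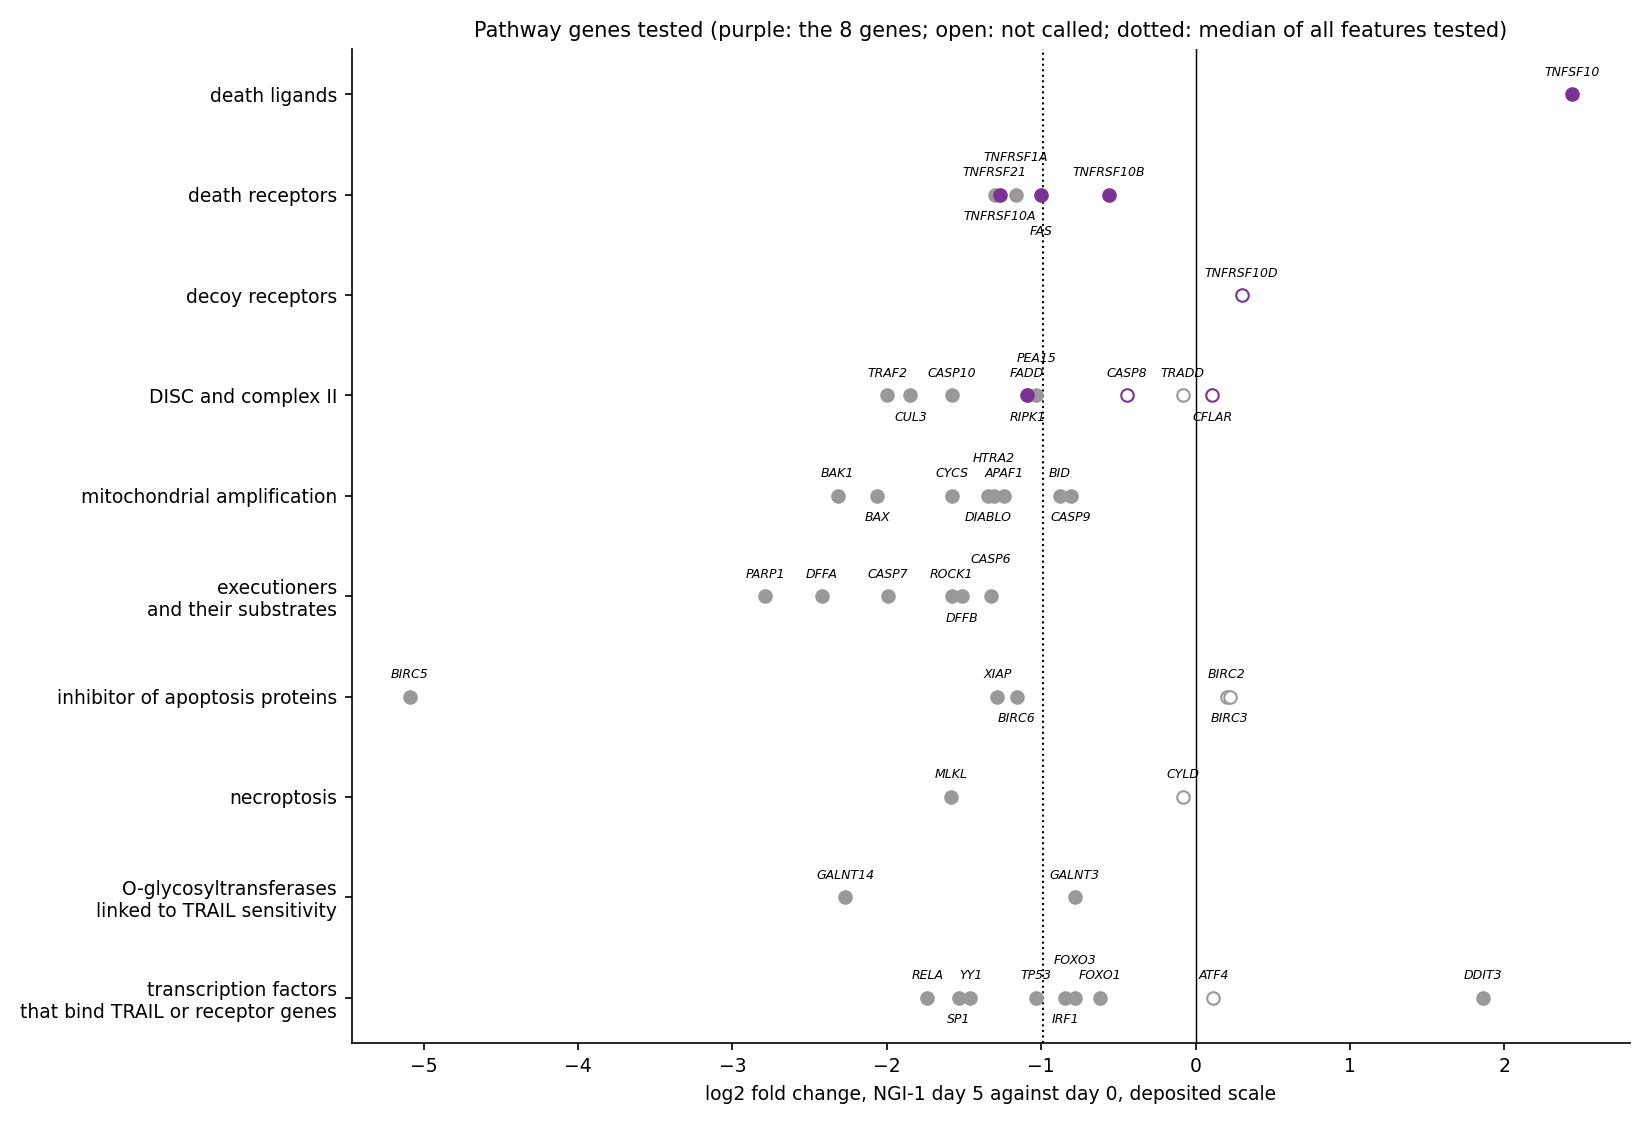
Log2 difference at day 5 from day 0 on the deposited scale (x axis) for the 48 tested pathway genes in their 10 lists (rows), filled where called and purple for the 8 genes. The dotted line is the median of all features tested, at -0.99, and TNFSF10 (2.44) and DDIT3 (1.86) are the genes shown that were called higher.

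The features whose course was nearest to each of the 8 genes were found by the root mean square difference between their log2(TPM + 1) deviations from the day 0 mean, over the 12 libraries and among 6705 or 6706 features with a mean of at least 10 TPM in a group. For TNFSF10 the nearest was IFIT5, an interferon-induced gene, at 0.21, which went from 1.19 TPM to 8.07, 12.3 and 12.6 TPM. The next were the histone H4 genes H4C8 and H4C14, at 0.30 and 0.37, which are near-identical copies of other histone genes, so their values are uncertain. TNFRSF10A was nearest to SMG8, RTF2 and KLHL20 (0.085 to 0.098), and FADD to SRP9, DUSP12 and VPS25 (0.062 to 0.082). TNFRSF10B was nearest to PSAT1, CEBPG and ZBTB7B (0.088 to 0.097). TNFRSF10D was nearest to ASNS at 0.086, then LEPROT and VIM. FAS was nearest to CHD1, MRPL9 and NDUFS3 (0.14 to 0.15), CASP8 to TMEM101, ADPGK and SPTLC1 (0.056 to 0.074), and CFLAR to AIG1 at 0.065, VIM at 0.066 and TMC6 at 0.098. Likeness was measured with the library scale included and on log2(TPM + 1), which understates changes near or below 1 TPM. TNFSF10 went from 0.189 TPM to 4.13, 7.85 and 5.44 TPM, a larger rise in proportion than that of IFIT5. Its level was lower at day 5 than at day 3, and that of IFIT5 was not. TNFRSF10D went from 0.522 to 1.22 TPM at day 2, and ASNS from 92.1 to 141 TPM, a smaller rise in proportion. These features are descriptions of course only.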

How the data were processed

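Total RNA of 12 MM1S libraries was sequenced by the authors from 200 ng of RNA to more than 60 M read pairs each. Processing notes of the submitters name FastQC, Trimmomatic, STAR, Salmon and hg38, and the versions, roles and annotation are not given in the sources used here. The authors deposited log2(TPM + 1) values for 59276 features, here returned to TPM as 2 to that power minus 1. No counts are held, so counting error and detection limits are unknown, and precision was read from 3 libraries per group. Pearson's r across features was 0.985 to 0.992 in the 12 replicate pairs.

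Features with at least 1 TPM in at least 3 libraries (11939) were fitted with limma 3.58.1 (R 4.3.3) in 1 model of 4 groups with a mean-variance trend, two-sided, and with Benjamini-Hochberg adjustment within each contrast. The procedure was also run on simulated data with changes set at day 2 alone. The simulated data held no shift in library composition, so they do not bear on the choice of scale. For rescaling, each library was divided by 1 factor that brought its median log2 deviation from the mean over libraries to 0, over 5433 features with a mean of at least 10 TPM. Alternatives were no filter, a minimum of 5 TPM, a pseudocount of 0.1, leaving out the 20 most abundant features, fits of the 2 groups compared, no trend, fold thresholds of 0 or 1, and leaving out each library. Positions came from GENCODE release 29, promoters from RefSeq for 5 of the 8 genes. All 8 genes are named, with the largest rise and fall called at day 5 in each pathway list, genes that share a role with them (TNFRSF10C, CASP10, FASLG, BID, XIAP, BIRC2, BIRC3, DDIT3 and IRF1) and the 3 nearest features to each. TRADD, CYLD, RIPK3, BIRC6 and GALNT3 were named after their values were seen. In the pathway lists, 2 genes are not reported here and were left out of the list counts. The genes and lists were chosen with earlier results of these data known.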

Additional observations from a re-analysis of the deposited data

Results flagged for a closer look

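Between neighbouring treatment days, 4 differences of the 8 genes were called, with a limma adjusted p under 0.05 and a size over 0.5. For these the difference from day 0 was not the same on both days. Of all features tested, 3.22% were called higher and 55.5% lower at day 3 against day 2. At day 5 against day 3 the shares were 0.67% and 13.1%. A further 4 differences of the 8 genes had an adjusted p under 0.05 but were under the size threshold. They were FADD, CFLAR and FAS at day 3 against day 2 (-0.43, -0.37 and -0.42) and TNFSF10 at day 5 against day 3 (-0.46). The rise of TNFSF10 was larger at day 3 than at day 2 by 0.79 on the log2 scale, and by 1.32 after rescaling. TNFRSF10A was lower at day 3 than at day 2 by a log2 difference of -0.53, which was not called without H7 (-0.48), and lower at day 5 than at day 3 by -0.54, not called without H11 (-0.48). TNFRSF10B was lower at day 3 than at day 2 by -0.58. The median of all features tested was -0.57 for day 3 against day 2 and -0.25 for day 5 against day 3. Both receptors were near that median at day 3 against day 2. After rescaling these 3 receptor differences were 0.07, -0.22 and 0.00, and none was called. The part of library composition in the receptor differences was not tested beyond the rescaling.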

How the results depend on the processing

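No paired analysis was possible because the submitters numbered the libraries H1 to H12 in 1 series, with no replicate number shared between groups. The call of TNFSF10 as higher than day 0 held on each day under every alternative run. With each library left out in turn, its log2 difference ranged from 2.03 to 2.18 at day 2, 2.87 to 2.92 at day 3 and 2.41 to 2.46 at day 5.

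Over the 8 genes rescaling gave 4 and 5 higher at day 3 and day 5 and 0 lower in every comparison, against 1, 4, 4, 2 and 1 lower on the deposited scale. Over the pathway lists it gave 12 higher and 6 lower for day 2, 10 and 13 for day 3, and 11 and 14 for day 5. It turned the sign of TNFRSF10A at day 2 (0.027), day 3 (0.092) and day 3 against day 2 (0.065); of TNFRSF10B at day 2 (0.19), day 3 (0.19), day 5 (0.57) and day 3 against day 2 (0.0044); of FADD at day 5 (0.054) and between neighbouring days (0.17 and 0.062); of CASP8 in all 5 comparisons (0.22, 0.67, 0.76, 0.45 and 0.091); and, between neighbouring days, of CFLAR (0.25 and 0.11), TNFRSF10D (0.12 and 0.15) and FAS (0.12 for day 5 against day 3). BID and IRF1 at day 5 turned to 0.31 and 0.32. The factors were set by the median feature, and which scale fits RNA per cell was not tested.

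Without the 20 most abundant features, 3 of the 8 genes were higher on day 3 and 2 on day 5, 2 were lower on day 3, and 0 were lower between neighbouring days. TNFRSF10B at day 2 was 0.065, CASP8 was 0.083 on day 2 and 0.065 on day 3, and 7 and 4 pathway genes were higher at day 3 and day 5. A pseudocount of 0.1 gave 2 higher for day 3 and for day 5, and 2 lower for day 5 against day 3. A minimum of 5 TPM, which FAS and TNFRSF10D did not pass, left 0 lower at day 2. No fold threshold gave 2 lower at day 2, 3 and 2 higher at day 3 and day 5, and 5 and 2 lower between neighbouring days, and in the lists 11 and 7 higher at day 2 and day 3. A fold threshold of 1 gave 1 higher at day 2 and 0 at day 3 against day 2, 0 lower at day 2, day 3 and between neighbouring days, and 2 lower at day 5. In the lists it left 2 higher and 2 lower at day 2 and 21 lower at day 3. The shares of all features called are not given for these settings or with a library left out. Such counts therefore cannot be read beside those of all features and describe the settings only. Adding 1 TPM to ratios raised the decoy share by 4.73 and 6.40 percentage points at day 3 and day 5, in place of 3.03 and 3.81.

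With each library left out in turn, the higher calls ranged from 2 to 3 at day 2 and the lower calls from 0 to 1 at day 2, 1 to 2 for day 3 against day 2, 0 to 1 for day 5 against day 3 and 3 to 5 at day 5. The log2 difference ranged from -0.081 to 0.017 for TNFRSF10B and from -0.073 to 0.054 for CASP8 at day 2. For day 5 against day 3 it ranged from -0.10 to 0.17 for TNFRSF10B, -0.18 to 0.081 for FAS and -0.076 to 0.012 for TNFRSF10D. The ratio of TNFRSF10B to TNFRSF10A at day 3 minus day 0 ranged from -0.0046 to 0.086. No filter, no trend and fits of 2 groups changed no call of the 8 genes. Levels below 1 TPM in TNFSF10 at day 0 and in TNFRSF10D and FAS limit how well their fold changes are known.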

Other observations

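Within the TRAIL receptor cluster on chromosome 8, AC107959.4, a long noncoding RNA that overlaps TNFRSF10C on the same strand, had mean levels of 1.08, 2.32, 3.08 and 2.84 TPM at day 0, day 2, day 3 and day 5. It was named after its values were seen, and no test of it is given. TNFRSF10C itself averaged 0.0584 TPM at day 0 and 0.111 TPM at day 5, and reads of the overlapping exons could be given to either.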
